A study of Homo sapiens with 8 samples.

Results

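The genes described here encode the subunits of Polycomb repressive complexes 1 and 2 (PRC1 and PRC2) together with their H2A deubiquitinase partners. They were chosen by symbol: 33 genes of the 57820 in the expression table, of which 32 had a mean of 1 FPKM or more in at least 1 group and so were among the 15019 tested genes. FPKM (fragments per kilobase of transcript, scaled to sequencing depth) is a level per length, so levels can be set side by side between genes. OVCA429 is an established human ovarian cancer cell line. RNA was sequenced from a stable OVCA429 line carrying a short hairpin RNA against GRHL2 (shGRHL2, 1 hairpin, number 12) and from a stable control line carrying a hairpin against luciferase (shLuc). GRHL2 is a transcription factor of epithelial cells, and the comparison addresses which genes differ in expression when it is depleted. Both lines were grown in 10% serum with 2 µg/ml puromycin, and libraries were made with a stranded total RNA kit using 1 µg of RNA.

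Polycomb complexes keep genes silent through marks on histones. PRC2 methylates histone H3 on lysine 27 (H3K27me3) through EZH1 or EZH2. PRC1 ubiquitinates histone H2A through RING1 or RNF2, each paired with a PCGF subunit. Canonical PRC1 carries a CBX protein that reads H3K27me3, whereas variant PRC1 carries RYBP or YAF2 in its place, and BAP1 with an ASXL protein removes the ubiquitin. Most subunits are encoded by families of paralogues that exclude each other from a complex, so the relative level of paralogues is a common way to describe which assemblies a cell can build.

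Each group had 4 samples by its labels, but the 4 differed by little more than repeat sequencing. In shGRHL2 the 656 genes at 100 FPKM or more had a median coefficient of variation of 2.79%, and in shLuc the 763 such genes had 2.72%. Each group was therefore counted as 1 library in 4 runs, ± is the SD between runs, and no difference below has a check between separate cultures. The depth, read from the steps of low values, was 10.0 to 10.3 M fragments per shGRHL2 run and 9.36 to 9.69 M per shLuc run. GRHL2 was at 0.13, 0.15, 1.17 and 0.10 FPKM in the shGRHL2 runs, against 31.5, 38.7, 33.4 and 32.0 FPKM in the shLuc runs. PAX8, a transcription factor of Müllerian epithelium, was at 118 to 124 FPKM in shGRHL2 and 65.1 to 72.7 FPKM in shLuc, and keratin KRT8 was at 474 to 492 FPKM in shGRHL2 and 1279 to 1306 FPKM in shLuc. Mitochondrial ribosomal RNAs took on average 25.38% of fragments in shGRHL2 and 16.97% in shLuc, and the median difference over all tested genes was −0.10 on the log2(FPKM + 1) scale. Endothelial markers summed to 93.6 to 98.6 FPKM in shGRHL2 and 0.72 to 1.07 FPKM in shLuc, carried by 3 of 5 genes (TIE1, CDH5 and KDR), with VWF and CLDN5 near 0 in both. Fibroblast markers summed to 3.34 to 5.09 FPKM in shGRHL2 and 1.09 to 3.24 FPKM in shLuc, with 1 of 7 tested (COL1A1) and DCN at 0 in every run. Leukocyte markers summed to 9.38 to 10.4 FPKM in shGRHL2 and 2.56 to 4.34 FPKM in shLuc, with 2 of 5 tested (CD68 and LAPTM5) and CD3E at 0 in every run. The part of these shifts in the differences of the Polycomb genes was not tested.

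The Polycomb genes differed little between the libraries. None of the 32 tested members passed 2-fold on the log2(FPKM + 1) scale, where 12.2% of all tested genes did (4.97% higher and 7.24% lower). At 1.5-fold, 4 of 32 passed (12.5%), against 28.9% of all tested genes. CBX2 was the 1 higher (11.7% of all tested genes were higher), and PCGF1, PCGF5 and RYBP were the 3 lower (17.2% were lower). The median absolute difference of the members was 0.14, against 0.35 over all tested genes, and 28 of 32 lay within 0.5 of zero (87.5%), against 64.7%. The median signed difference of the members was −0.03 and that of all tested genes −0.10. Runs of the libraries did not overlap for 11 of 32 members (34.4%), against 51.6% of all tested genes. Of these, 3 were higher in shGRHL2 (18.5% of all tested genes) and 8 were lower (33.2%). That balance turned with the scaling: 6 higher and 5 lower with the medians of the libraries set equal, 2 and 12 as TPM, and 7 and 5 without the mitochondrial ribosomal RNAs. Over all tested genes, in either direction, runs did not overlap for 51.3%, 54.4% and 50.6% under these scalings in turn. In bulk RNA, fewer cells with a transcript and less of it per cell cannot be told apart.

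**Figure D1:**
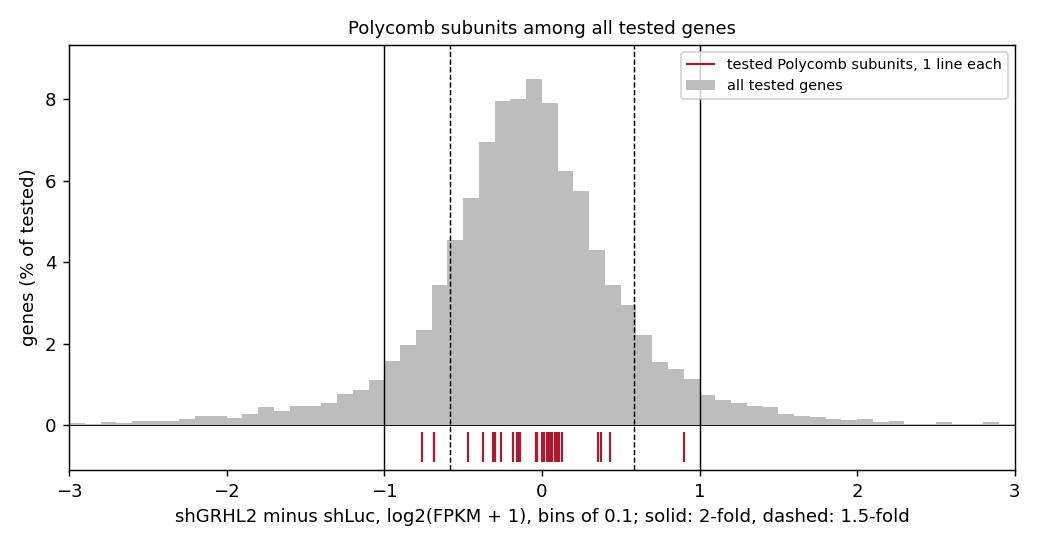
Difference between shGRHL2 and shLuc in log2(FPKM + 1) for all 15019 tested genes (grey bars, percent of genes per bin of 0.1; the axis stops at 3 in either direction) and for the 32 tested Polycomb genes (red lines below the axis). The red lines gather near zero, with CBX2 alone near the upper 2-fold line and 3 genes beyond the lower 1.5-fold line.

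The direction of small differences depends on how the libraries are scaled. As deposited, 15 of the 32 members had a positive difference and 17 a negative one. With the medians of the libraries set equal, 19 were positive and 13 negative. After rescaling to TPM, 6 were positive and 26 negative, and without the mitochondrial ribosomal RNAs, 20 were positive and 12 negative. The sign was the same under all 4 scalings for 18 members, among them 9 of the 11 with non-overlapping runs. The exceptions were CBX6 (0.06 as deposited, −0.04 as TPM) and PHC2 (−0.14 as deposited, 0.01 without the mitochondrial ribosomal RNAs).

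**Figure D2:**
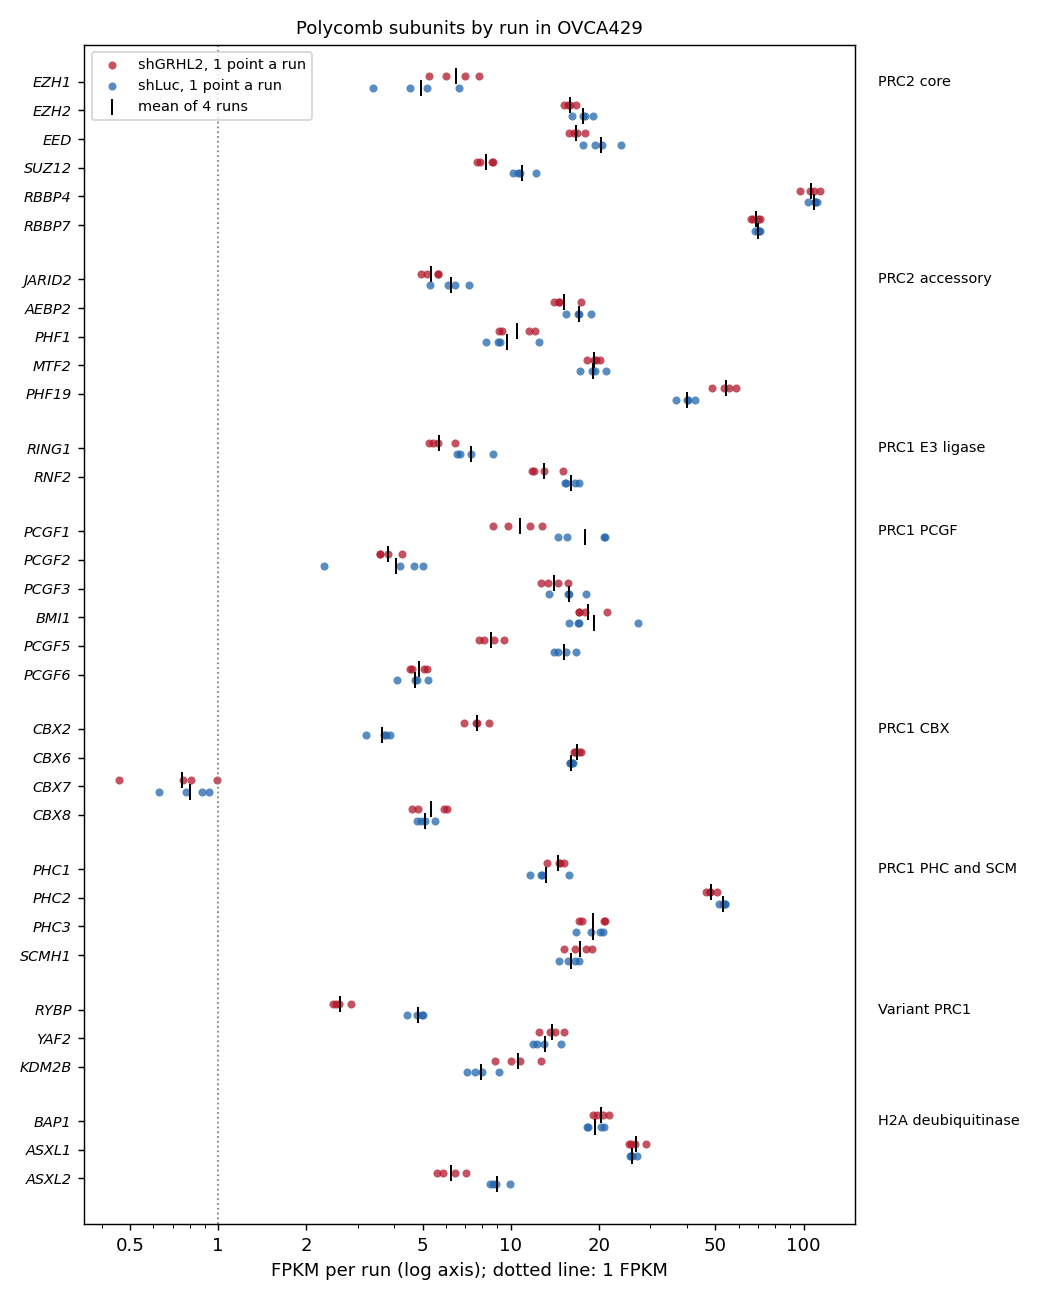
FPKM per run (log axis) of the 33 Polycomb genes, grouped by role, with shGRHL2 runs in red above shLuc runs in blue and the mean of 4 runs as a black tick. RBBP4 is highest at 106 FPKM in shGRHL2 and 108 FPKM in shLuc, CBX7 lies below 1 FPKM in both, and the runs of CBX2, PCGF5 and RYBP stand clearly apart.

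Among the core subunits of PRC2, 5 of 6 had overlapping runs, where 51.6% of all tested genes had separate ones. EZH2 is the main methyltransferase of dividing cells. It was at 15.6, 15.2, 16.0 and 16.8 FPKM in shGRHL2 and at 16.2, 18.0, 17.6 and 19.1 FPKM in shLuc, a difference of −0.15 with runs that overlapped. EZH1, the paralogue typical of resting cells, was at 5.99, 6.99, 7.78 and 5.24 FPKM in shGRHL2 and at 5.18, 4.52, 3.38 and 6.64 FPKM in shLuc (difference 0.36, SD between runs 0.40). EZH2 was therefore the more abundant of the pair in every run, with 71.0 ± 4.1% of their summed FPKM in shGRHL2 and 78.4 ± 4.4% in shLuc, and the runs overlapped. The summed level of both enzymes was 22.4 ± 0.94 FPKM in shGRHL2 and 22.6 ± 2.2 FPKM in shLuc.

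SUZ12, the scaffold that holds the accessory subunits, was the core gene with separate runs. It was at 7.68, 8.62, 7.85 and 8.68 FPKM in shGRHL2, against 10.2, 10.6, 10.7 and 12.2 FPKM in shLuc, a difference of −0.37 with an SD of 0.13. All shGRHL2 runs were below all shLuc runs. The partial copy SUZ12P, which shares 6.31% of the 50-base stretches of SUZ12 transcripts, was at 7.88 ± 0.89 FPKM in shGRHL2 and 7.51 ± 1.1 FPKM in shLuc, and the difference of both added together was −0.18. How RSEM divided shared fragments between them was not tested. EED, which binds H3K27me3 and stimulates the enzyme, was at 16.8, 15.8, 16.4 and 17.9 FPKM in shGRHL2 and at 20.4, 19.4, 17.7 and 23.8 FPKM in shLuc (difference −0.26), with a single shLuc run inside the shGRHL2 range. The histone chaperones RBBP4 and RBBP7, which also serve other chromatin complexes, were the most abundant members. RBBP4 was at 105, 109, 97.3 and 113 FPKM in shGRHL2 and at 103, 111, 109 and 109 FPKM in shLuc, and RBBP7 averaged 68.5 ± 2.2 FPKM in shGRHL2 and 69.9 ± 1.1 FPKM in shLuc. Both differences were −0.03. The share of RBBP4 in the pair was 60.7% in both libraries.

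Of the 5 accessory subunits of PRC2, PHF19 alone had separate runs, against 51.6% of all tested genes. PHF19 is a Polycomb-like protein that links PRC2 to CpG-rich DNA, as do its paralogues MTF2 and PHF1. It was at 48.8, 58.9, 55.6 and 53.3 FPKM in shGRHL2, against 40.5, 40.0, 42.5 and 36.8 FPKM in shLuc. The lowest shGRHL2 run was above the highest shLuc run, and the difference was 0.43 with an SD of 0.14 (0.32 as TPM and 0.58 without the mitochondrial ribosomal RNAs). MTF2 averaged 19.3 ± 0.87 FPKM in shGRHL2 and 19.1 ± 1.6 FPKM in shLuc, and PHF1 10.5 ± 1.5 FPKM in shGRHL2 and 9.73 ± 1.9 FPKM in shLuc. PHF19 was thus the leading Polycomb-like transcript in both libraries, with 64.5 ± 1.0% of the summed FPKM of the family in shGRHL2 and 58.0 ± 1.2% in shLuc, with no overlap of runs. The summed level of the 3 genes was 83.9 ± 5.8 FPKM in shGRHL2 and 68.8 ± 2.8 FPKM in shLuc. JARID2 and AEBP2 define the other form of PRC2. JARID2, which recruits PRC2, averaged 5.35 ± 0.36 FPKM in shGRHL2 and 6.25 ± 0.79 FPKM in shLuc. AEBP2, which stabilises the complex, averaged 15.2 ± 1.5 FPKM in shGRHL2 and 17.1 ± 1.4 FPKM in shLuc, and both had overlapping runs.

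Several PRC2 genes are known targets of E2F factors, so levels of proliferation genes were read beside them. Of 15 such genes, 0 were higher and 1 was lower by 2-fold (4.97% and 7.24% of all tested genes), and 0 were higher and 3 lower by 1.5-fold (11.7% and 17.2%). Their median was −0.28, against −0.10 over all tested genes. Runs were separate for 2 higher and 8 lower genes (18.5% and 33.2% of all tested genes). The 2 higher were TYMS (difference 0.57) and TOP2A (0.39), named after their values were seen. E2F1 itself, named after its values were seen, was at 11.7, 12.3, 11.6 and 13.2 FPKM in shGRHL2, against 20.2, 19.4, 21.3 and 20.9 FPKM in shLuc (difference −0.70). The gene past 2-fold was the replication helicase subunit MCM6, at 12.0, 11.8, 12.2 and 12.1 FPKM in shGRHL2, against 33.2, 30.1, 29.6 and 30.7 FPKM in shLuc. The part of proliferation in the differences of EZH2, EED and SUZ12 was not tested.

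Promoter windows from RefSeq (GRCh38.p14, 250 bases before to 50 after a start site) were found for 30 of the 33 genes, 47 windows in all. CBX2, CBX8 and BAP1 had no window, so their promoters were not searched. The GRHL-type letters AACCGGTT, read on both strands, were in 0 of them and in 0.134% of all 35116 windows. The looser AACNGGTT, which includes it, was also in 0, and in 1.73% of all windows. The E2F-type letters TTTGGCGC were in EZH2 alone (0.652% of all windows), and TTTCCCGC in MTF2, PHF19 and SUZ12 (1.63% of all windows). Here the members are counted as genes, some with several windows, and the percentages are of single windows, so they are not like measures. Of the genes with an E2F-type site, 1 was higher with separate runs (PHF19), 1 lower (SUZ12) and 2 had overlapping runs. Of all tested genes, 18.5% were higher and 33.2% lower with separate runs. Among the genes with a window, E2F-type sites fell in few genes, all of PRC2, which was seen after the search and not tested. The sites are shown for that reason. Each is read 5′ to 3′ along the strand of its gene, with the motif in capitals (GCGGGAAA is TTTCCCGC on the opposite strand).
EZH2, chr7:148884272-148884301, minus strand: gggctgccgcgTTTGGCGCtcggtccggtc
MTF2, chr1:93079277-93079306, plus strand: accggcagtccGCGGGAAAccaaaatggcg
PHF19, chr9:120877322-120877351, minus strand: gtcaataattcGCGGGAAAacgcgaaaaag
SUZ12, chr17:31936807-31936836, plus strand: cgacccctaatTTTCCCGCgaattcagttc
A match of letters is no measure of binding, and its absence says only that these letters are not in these windows.

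Both ubiquitin ligases of PRC1 were lower in shGRHL2 as deposited, by less than 1.5-fold. RNF2 (RING1B) was at 13.0, 12.0, 15.1 and 11.8 FPKM in shGRHL2, against 17.1, 15.5, 16.6 and 15.3 FPKM in shLuc, a difference of −0.30 (SD 0.17). RING1 (RING1A) was at 6.46, 5.62, 5.24 and 5.43 FPKM in shGRHL2, against 6.55, 7.32, 8.69 and 6.72 FPKM in shLuc, a difference of −0.31 (SD 0.20). For each gene the gap between the nearest runs was small, 15.1 against 15.3 FPKM and 6.46 against 6.55 FPKM. The runs of both genes were separate as deposited and as TPM, and overlapped with equal medians (−0.19 for RNF2 and −0.20 for RING1) and without the mitochondrial ribosomal RNAs (−0.15 and −0.18). The proportion of the pair was alike: RNF2 held 69.4 ± 3.3% of their summed FPKM in shGRHL2 and 68.8 ± 2.8% in shLuc. Their sum as deposited was 18.7 ± 1.5 FPKM in shGRHL2 and 23.4 ± 1.4 FPKM in shLuc, a ratio of shGRHL2 to shLuc of 0.797. This sum depends on the scaling, as the single genes do.

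The PCGF subunits, each of which defines its own PRC1 assembly, held 2 of the 3 genes lower by 1.5-fold. PCGF5 belongs to a variant PRC1 with AUTS2 and casein kinase 2. It was at 7.79, 8.79, 9.45 and 8.11 FPKM in shGRHL2, against 16.7, 14.1, 15.5 and 14.5 FPKM in shLuc. The ranges lay far apart, and the mean was 1.78-fold lower (difference −0.76, SD 0.15), from about 1433 fragments in shGRHL2 and 2395 in shLuc. PCGF5 stayed below the 1.5-fold line under every scaling, at −0.85 as TPM, −0.65 with equal medians and −0.63 without the mitochondrial ribosomal RNAs. PCGF1, which pairs with KDM2B and BCOR on CpG islands, was at 12.8, 8.66, 9.80 and 11.7 FPKM in shGRHL2, against 20.9, 15.5, 20.8 and 14.4 FPKM in shLuc. Its mean was 1.67-fold lower (difference −0.69, SD 0.35), the runs scattered widely, and with equal medians (−0.58) or without the mitochondrial ribosomal RNAs (−0.55) it fell short of 1.5-fold.

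BMI1 (PCGF4), a canonical PRC1 subunit known as a repressor of the CDKN2A locus, was at 17.2, 17.1, 21.3 and 18.0 FPKM in shGRHL2 and at 15.8, 17.1, 17 and 27.1 FPKM in shLuc. The runs overlapped and the difference was −0.04 (SD 0.37). The readthrough transcript COMMD3-BMI1, which shares 20.8% of the 50-base stretches of BMI1 transcripts, was at 9.66, 9.53, 13.2 and 17.5 FPKM in shGRHL2 and at 10.0, 8.54, 9.37 and 6.67 FPKM in shLuc. In the shLuc run where BMI1 was highest, COMMD3-BMI1 was at its lowest, and the difference of their sum was 0.14. PCGF2 (MEL18), the other canonical partner, averaged 3.80 ± 0.32 FPKM in shGRHL2 and 4.04 ± 1.2 FPKM in shLuc. PCGF3, of a variant complex like that of PCGF5, averaged 14.1 ± 1.3 FPKM in shGRHL2 and 15.8 ± 1.9 FPKM in shLuc, and PCGF6, which joins MGA and E2F6 in variant PRC1, 4.84 ± 0.33 FPKM in shGRHL2 and 4.70 ± 0.47 FPKM in shLuc.

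Summed over the 6 genes as deposited, PCGF transcripts were at 60.4 ± 2.1 FPKM in shGRHL2 and 76.9 ± 5.3 FPKM in shLuc. The ratio of shGRHL2 to shLuc was 0.785, with no overlap of runs. Unlike a share, such a sum depends on the scaling, and its overlap was not recomputed under the other scalings. Within this sum, BMI1 had the highest mean share in both libraries, at 30.4 ± 2.7% in shGRHL2 and 25.1 ± 6.5% in shLuc. The share of PCGF5 was 14.1 ± 1.3% in shGRHL2 and 19.8 ± 1.3% in shLuc, with no overlap. PCGF6 had 8.03 ± 0.70% in shGRHL2 and 6.13 ± 0.72% in shLuc, also with no overlap, and the shares of the other 4 overlapped.

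CBX2 showed the largest difference of any member as deposited, whereas as TPM that of PCGF5 was larger in size. It encodes a chromodomain reader of H3K27me3 that compacts nucleosomes, and lies on chromosome 17 at 77751947 to 77761782 of GRCh37, next to CBX8 at 77765931 to 77775482. It was at 8.40, 7.65, 7.62 and 6.90 FPKM in shGRHL2, against 3.74, 3.70, 3.88 and 3.21 FPKM in shLuc. Every shGRHL2 run was well above every shLuc run, and the mean FPKM was 2.10-fold higher, with a standard error of 5.68% from the runs. On the log2(FPKM + 1) scale, which understates changes at low levels, the difference was 0.90 (SD 0.14), under the 2-fold limit. It passed that limit with equal medians (1.01), without the mitochondrial ribosomal RNAs (1.06) and with a pseudocount of 0.1 (1.05), and not as TPM (0.79). The reads behind it were about 1066 fragments in shGRHL2 and 476 in shLuc, counting errors of 3.06% and 4.58%.

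The other CBX genes did not differ to that degree. CBX8, the neighbour, averaged 5.34 ± 0.74 FPKM in shGRHL2 and 5.08 ± 0.32 FPKM in shLuc. CBX6 was at 16.6, 17.1, 17.4 and 16.4 FPKM in shGRHL2, against 16.3, 16.0, 16.0 and 16.2 FPKM in shLuc, separate runs at a difference of only 0.06. CBX7, a reader linked to growth control, was the 1 member under the filter, at 0.76 ± 0.22 FPKM in shGRHL2 and 0.81 ± 0.13 FPKM in shLuc. Of the summed FPKM of the 4 CBX genes, CBX2 held 27.8%, 25.4%, 23.8% and 23.0% in the shGRHL2 runs, against 14.4%, 14.5%, 15.4% and 12.5% in the shLuc runs. CBX6 was the main transcript of the 4 in both libraries, with 55.1 ± 1.2% in shGRHL2 and 62.9 ± 0.29% in shLuc, and the runs of both shares were separate. The summed level was 30.6 ± 0.98 FPKM in shGRHL2 and 25.6 ± 0.33 FPKM in shLuc. The ratio of CBX2 to CBX8 was 1.46 ± 0.29 in shGRHL2 and 0.719 ± 0.098 in shLuc, so their order differed between the libraries. Such ratios are taken within a library and do not depend on its scaling.

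The Polyhomeotic proteins, which polymerise through a SAM domain and gather PRC1 into clusters, differed by 0.14 or less. PHC2 led them at 47.8, 48.0, 50.7 and 46.2 FPKM in shGRHL2, against 53.0, 54.0, 53.7 and 51.5 FPKM in shLuc, separate runs at a difference of −0.14. PHC1 averaged 14.5 ± 0.82 FPKM in shGRHL2 and 13.2 ± 1.8 FPKM in shLuc, and PHC3 averaged 19.1 ± 2.1 FPKM in shGRHL2 and 19.1 ± 1.8 FPKM in shLuc. Of the 50-base stretches of PHC1 transcripts, 40.5% were shared with the pseudogene PHC1P1, which was at 2.37 ± 0.53 FPKM in shGRHL2 and 1.86 ± 0.34 FPKM in shLuc, so the level of PHC1 depends on how those fragments were divided. With the copy added, the difference of PHC1 was 0.15. SCMH1, a SAM-domain partner, averaged 17.2 ± 1.7 FPKM in shGRHL2 and 16.0 ± 1.1 FPKM in shLuc.

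Of the variant PRC1 paralogues RYBP and YAF2, RYBP alone had separate runs, against 51.6% of all tested genes. Both paralogues compete with CBX proteins for RING1 or RNF2, and RYBP also binds ubiquitinated H2A. RYBP was at 2.47, 2.85, 2.53 and 2.59 FPKM in shGRHL2, against 4.43, 4.98, 4.80 and 5.02 FPKM in shLuc. The runs of each library were tight and far from the other, and the mean was 1.84-fold lower (standard error 4.26% from the runs, difference −0.69). RYBP has a single annotated transcript, and none of its 50-base stretches were shared with another gene of the table. With equal medians its difference was −0.58, just short of 1.5-fold. YAF2 averaged 13.9 ± 1.1 FPKM in shGRHL2 and 13.0 ± 1.3 FPKM in shLuc, with overlapping runs. RYBP accordingly held 14.02%, 16.73%, 15.67% and 17.15% of the summed FPKM of the pair in the shGRHL2 runs, against 27.05%, 28.80%, 26.97% and 25.21% in the shLuc runs. This was the widest shift of share in any of the 9 families examined, at 11.1 percentage points. YAF2 was more abundant than RYBP in every run, by 5.33 ± 0.58 times in shGRHL2 and 2.71 ± 0.20 times in shLuc. KDM2B, which brings the PCGF1 complex to unmethylated CpG islands, was at 10.0, 8.85, 12.7 and 10.8 FPKM in shGRHL2 and at 7.54, 9.08, 7.10 and 7.95 FPKM in shLuc, a difference of 0.37 (SD 0.24) with overlap of 1 run from each library.

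Of the 3 H2A deubiquitinase genes, ASXL2 alone had separate runs, against 51.6% of all tested genes. The catalytic subunit BAP1 averaged 20.3 ± 1.1 FPKM in shGRHL2 and 19.4 ± 1.3 FPKM in shLuc. Its cofactor ASXL1 averaged 26.7 ± 1.7 FPKM in shGRHL2 and 26.0 ± 0.69 FPKM in shLuc. ASXL2, which can take the place of ASXL1, was at 6.47, 7.02, 5.86 and 5.58 FPKM in shGRHL2, against 8.69, 8.46, 8.91 and 9.90 FPKM in shLuc, a difference of −0.47 (SD 0.16). The share of ASXL2 in the pair was 18.96 ± 2.2% in shGRHL2 and 25.7 ± 1.7% in shLuc, and the runs did not overlap.

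**Figure D3:**
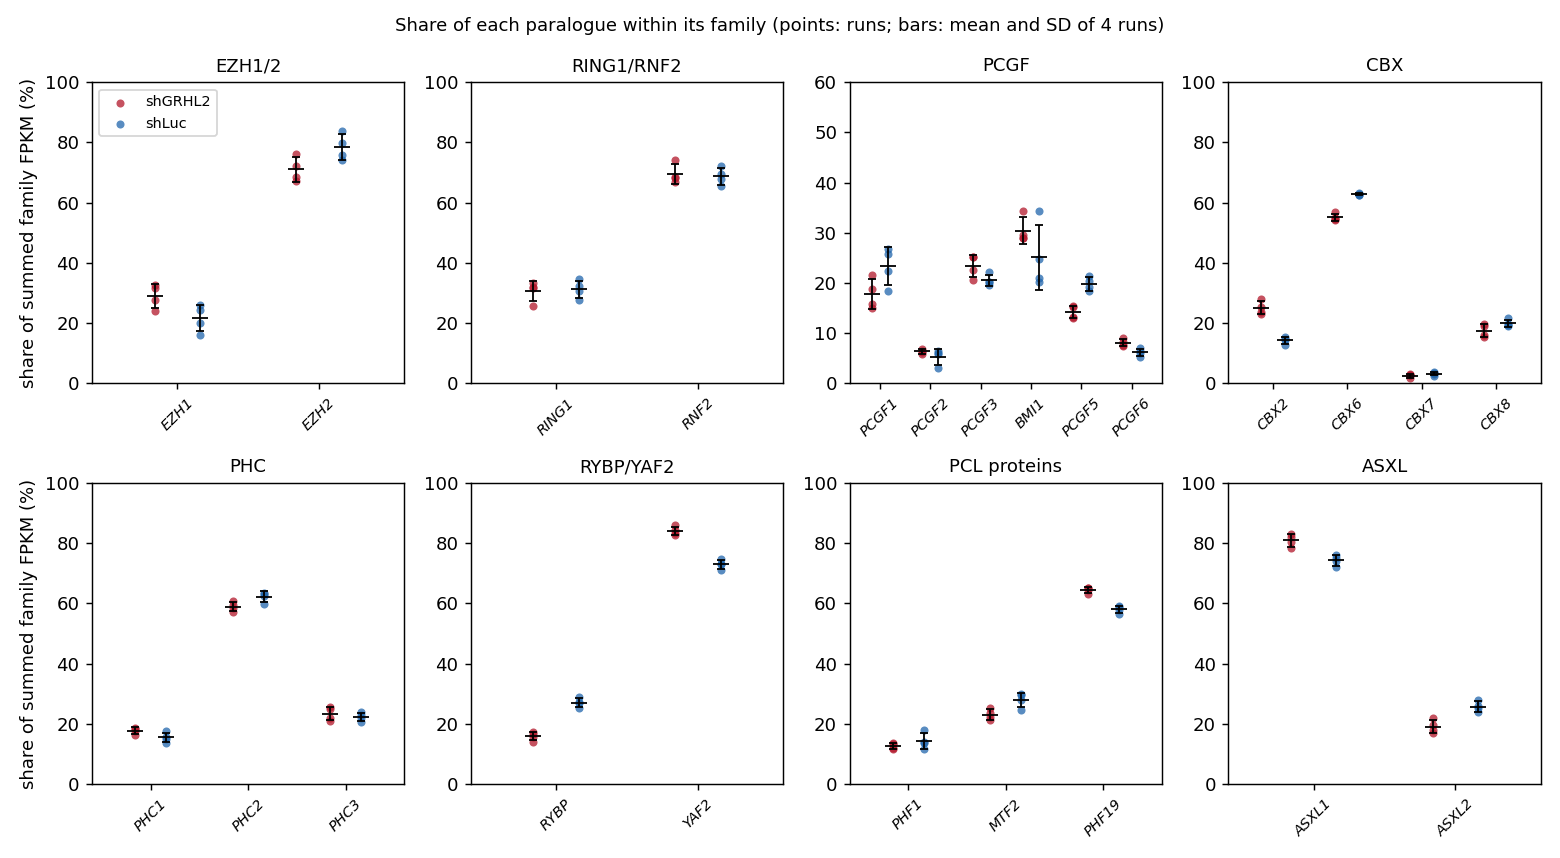
Share of each paralogue in the summed FPKM of its family (percent, vertical axis), with shGRHL2 runs in red to the left of shLuc runs in blue, and the mean and SD of 4 runs in black. RYBP, CBX2, CBX6, ASXL2, PCGF5, PCGF6 and PHF19 show runs that do not overlap, as do YAF2 and ASXL1 as the partners in a pair. RING1 and RNF2 keep nearly the same proportion.

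**Figure D4:**
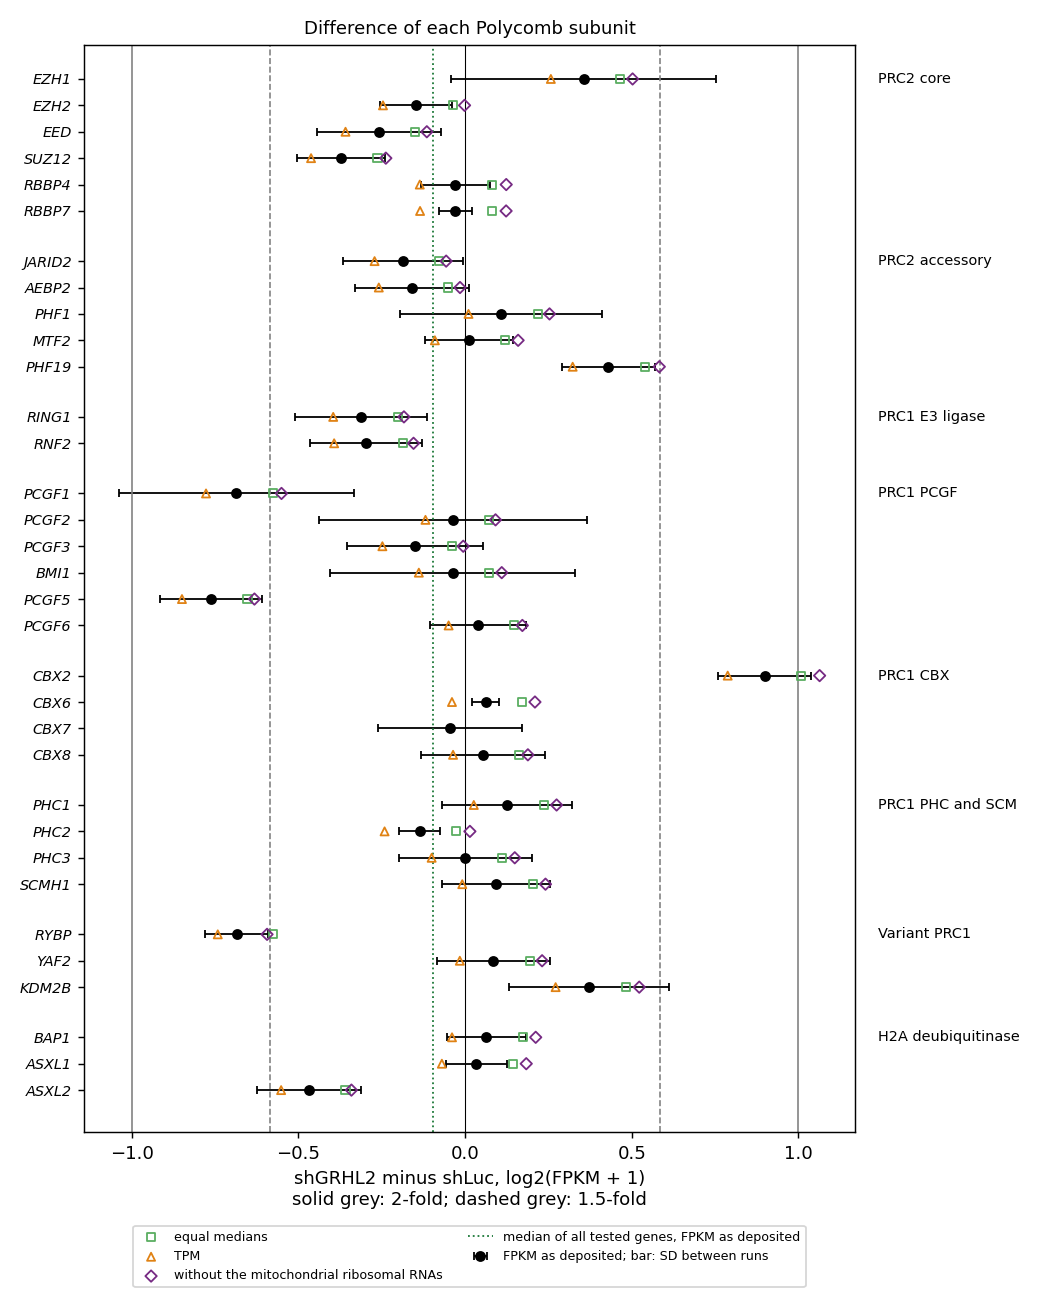
Difference of each Polycomb gene between shGRHL2 and shLuc in log2(FPKM + 1), as deposited (black, with the SD between runs) and under 3 other scalings (open symbols). CBX7, under the filter, has the black point only. CBX2 crosses the 2-fold line under 2 of the 3, while PCGF5 is beyond the 1.5-fold line under each.

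By limma, which with 1 library a group sets run against run rather than condition against condition, 12 of 32 members passed an adjusted p of 0.05, 3 higher and 9 lower, against 56.1% of all tested genes (20.6% higher and 35.5% lower). The balance turned with the scaling: 8 higher and 5 lower with equal medians, 2 and 15 as TPM, and 11 and 5 without the mitochondrial ribosomal RNAs. That of all tested genes turned too, from 3094 higher and 5335 lower as deposited. It was 4077 and 4198 with equal medians, 2496 and 6465 as TPM, and 4330 and 3939 without the mitochondrial ribosomal RNAs. RING1, RNF2, PHC2 and EED were not called with equal medians or without the mitochondrial ribosomal RNAs. The 12 were the genes with separate runs other than CBX6, together with EED and KDM2B.

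Genes that work with or against the complexes were set beside them from lists by function. Among 38 other Polycomb partners, 32 were tested, 0 were higher and 1 was lower by 2-fold (4.97% and 7.24% of all tested genes), and 1 was higher and 5 lower by 1.5-fold (11.7% and 17.2%). Their median of −0.10 was that of all tested genes. The gene past 2-fold was KDM1B, a histone H3 lysine 4 demethylase that joins the BAP1 complex. It was at 3.63, 3.83, 3.45 and 2.06 FPKM in shGRHL2, against 8.03, 6.62, 7.94 and 8.38 FPKM in shLuc (difference −1.06). KDM6A (UTX), which removes H3K27me3, was at 11.8, 11.0, 11.8 and 12.6 FPKM in shGRHL2, against 17.2, 20.1, 17.4 and 17.3 FPKM in shLuc, a difference of −0.57 with separate runs. Its paralogue KDM6B (JMJD3) was at 0.81, 0.34, 0.91 and 0.77 FPKM in shGRHL2 and at 1.62, 2.29, 0.69 and 0.87 FPKM in shLuc, with overlap. H3K27 demethylase transcripts were thus scarce next to EZH2 in the case of KDM6B, and lower in shGRHL2 in the case of KDM6A. Of 8 other proteins that write, read or erase H2A ubiquitin, none passed 1.5-fold (28.9% of all tested genes did), with a median of −0.11. Their runs were separate for 2 higher and 4 lower genes (18.5% and 33.2% of all tested genes).

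Polycomb targets known from other cell types were read next. Of 25 such genes, 11 were tested (26.0% of the whole table was) and 7 were at 0 in every run (47.9% of the whole table was). CDKN2A, the best known target of BMI1, had at most 0.34 FPKM in any shGRHL2 run and 0 in every shLuc run. On the log2(FPKM + 1) scale 3 targets passed 2-fold, all higher in shGRHL2 (4.97% of all tested genes were higher and 7.24% lower). By 1.5-fold, 6 were higher and 2 lower (11.7% and 17.2% of all tested genes). CDKN1C, a cyclin-dependent kinase inhibitor, was at 3.95, 3.67, 3.60 and 3.53 FPKM in shGRHL2, against 0.64, 0.60, 0.61 and 0.76 FPKM in shLuc. GATA4, an endoderm and heart transcription factor, was at 5.94, 8.35, 5.26 and 5.0 FPKM in shGRHL2, against 2.01, 2.17, 2.24 and 1.30 FPKM in shLuc. TBX3, a T-box repressor, was at 2.98, 3.09, 3.10 and 2.42 FPKM in shGRHL2, against 0.75, 1.02, 0.87 and 1.12 FPKM in shLuc. The runs of all 3 were separate. CDKN1C and TBX3 were among 3 targets that averaged under 1 FPKM in shLuc and entered the tested set through shGRHL2 alone, so these counts say nothing of the list as a whole. The 2 lower targets are named here after their values were seen. CDKN2B, a kinase inhibitor beside CDKN2A, was at 3.75 ± 1.0 FPKM in shGRHL2 and 8.03 ± 0.88 FPKM in shLuc, 2.14-fold lower as a ratio of means. PAX6, a transcription factor of eye and brain, was at 1.33 ± 0.41 FPKM in shGRHL2 and 2.76 ± 0.44 FPKM in shLuc, 2.08-fold lower.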

How the data were processed

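The deposited values are FPKM per gene. Per the submitters' processing notes and the study's methods, the authors demultiplexed with bcl2fastq 2.17.1.14, aligned to hg19 with STAR 2.4.2a and quantified with RSEM 1.2.25 against Gencode v19. RSEM divides fragments that match several transcripts, so values of paralogues, pseudogene copies and readthrough genes depend on how it shared them out. The study used EBSeq, which needs counts. Counts were not used here, and FPKM was not treated as counts. The authors' table also gave effective lengths, without naming the sample behind them.

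The 4 samples of a group counted as 1 library if the median coefficient of variation at 100 FPKM or more was under 3% in both groups, which it was. Each difference is the shGRHL2 mean less the shLuc mean on the log2(FPKM + 1) scale, for genes with a mean of 1 FPKM or more in at least 1 group. The pseudocount of 1 understates changes of low genes, and folds are ratios of mean FPKM. Called genes had an absolute difference of 1 or more (2-fold) or of log2(1.5) or more (1.5-fold). With 1 library a group no p per gene was given. limma 3.58.1 (R 4.3.3, intensity trend, Benjamini-Hochberg over all tested genes) gave counts only, on log2(FPKM + 1). Fragments per gene came from FPKM, effective length and the depth given by the steps of low values. Of low values, 85.2% to 87.1% per run lay within 0.1 fragment of whole. Depths are approximate, and counting errors cover counting only.

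Named genes were all 33 members, with run values for those past 1.5-fold, for 7 core genes and for the member with the largest change of share in each family. Run values of CBX6 and KDM2B, and the cell line markers, were added after values were seen. Of other lists, genes past 2-fold and KDM6A and KDM6B were named, and TYMS, TOP2A, E2F1, CDKN2B and PAX6 after their values were seen. Some genes are not reported here and were left out of family shares and lists. Members and lists were chosen with earlier results of these data known. Coordinates are GRCh37 (Gencode v44 lifted; 33 of 34 identifiers matched, and PCGF2 matched by symbol), and promoter sites are GRCh38.p14. Alternatives were another pseudocount, other filters, 3 other scalings, each run left out, copies added, a replicate block and limma without the trend.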

Additional observations from a re-analysis of the deposited data

Results flagged for a closer look

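Of 68 sets of 4 runs examined, 2 held a run far from the other 3, where chance alone marks about 1 in 20 sets. BMI1 in shLuc run 4 was at 27.11 FPKM, against 15.8 to 17.1 FPKM in the other shLuc runs, and COMMD3-BMI1, with which it shares sequence, was at 6.67 FPKM in that run and 8.54 to 10.0 FPKM in the others. GRHL2 in shGRHL2 run 3 was at 1.17 FPKM, against 0.10 to 0.15 FPKM in the other shGRHL2 runs. The part of shared fragments in the BMI1 value was not tested.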

How the results depend on the processing

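No member passed 2-fold as deposited. One did, CBX2, with a pseudocount of 0.1, with equal medians and without the mitochondrial ribosomal RNAs. The 4 members past 1.5-fold became 2 with equal medians (PCGF5 and CBX2), 3 without the mitochondrial ribosomal RNAs (PCGF1 lost) and 3 with a filter at 5 FPKM (RYBP not tested). Members with separate runs were 11 as deposited and with equal medians, 14 as TPM and 12 without the mitochondrial ribosomal RNAs. The share of all tested genes with separate runs was 51.6% as deposited and 51.3% with equal medians. It was 54.4% as TPM and 50.6% without the mitochondrial ribosomal RNAs. The median difference of −0.03 became 0.0802 with equal medians, −0.127 as TPM, 0.123 without the mitochondrial ribosomal RNAs and −0.0139 with copies added, and it lay between −0.0324 and −0.00965 with single runs left out. These scalings moved the median of all tested genes too, which was −0.10 as deposited, 0.01 with equal medians, −0.18 as TPM and 0.04 without the mitochondrial ribosomal RNAs. Of all tested genes, 746 were higher and 1087 lower by 2-fold as deposited, against 938 and 906 with equal medians, 615 and 1189 as TPM, and 1044 and 987 without the mitochondrial ribosomal RNAs. With a pseudocount of 0.1, 1324 were higher and 1663 lower. Leaving out single runs gave 0 members past 2-fold, 4 past 1.5-fold, 11 to 14 with separate runs and 10 to 13 called by limma. Of 477 recomputed differences of single members, 26 moved by more than the SD between runs, and none past 1.5-fold changed sign. Of the 32 tested members, 11 moved so without the mitochondrial ribosomal RNAs, 7 with equal medians and 5 as TPM. A pseudocount of 0.1 moved 2 and added copies moved 1. None of 234 recomputed shares moved so. Leaving out 1 of 4 runs cannot shift a mean by a full SD, so those recomputations could not move in this sense.

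Runs of the same number in both groups shared only a number. Their deviations correlated at −0.065 to 0.007, against −0.022 to 0.045 for other pairs, and 1 of 8 runs correlated best with its own number. With the replicate number as a block, limma called 10 members. With 1 library a group, no depth of sequencing replaces separate cultures, and values under about 1 FPKM, such as those of CBX7 (83 fragments in each library, a counting error of 11.0% and 10.9%), are imprecise.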
